A study of Homo sapiens with 4 samples.

Results

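The collagen chain genes are the genes that encode the alpha chains of the collagens. They were taken from the 4 deposited gene tables as every symbol made of COL, a number, A and a number, which gave 44 of the 27940 symbols with usable rows. By the form of the collagen they build, 11 encode fibrillar chains, 6 basement membrane chains, 3 network chains and 24 other chains. The 24 comprise 5 beaded filament chains of collagen VI, 1 anchoring fibril chain, 10 chains of fibril-associated collagens, 4 transmembrane chains, 2 multiplexins and 2 unclassified chains. The rule picked members by their symbols alone, but this family was chosen with earlier results of these data known.

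A collagen molecule is a triple helix of alpha chains, each built on a repeat of glycine followed by a pair of other amino acids, often proline and hydroxyproline. The chains are hydroxylated and folded with the help of chaperones in the endoplasmic reticulum, secreted, trimmed by proteases and cross-linked outside the cell. In the normal brain, interstitial collagens are sparse outside vessels and meninges, whereas gliomas and glioma cell lines can make matrix of their own.

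The study sequenced messenger RNA of U87 cells, an established human glioma line, in 4 libraries. The 2 control libraries, shNC, came from cells infected with a lentivirus made from an empty vector, per the labels' protocol, while the series' design text calls the control H1-RFP (WT). The 2 knockdown libraries, shPTPRN3, came from the same line infected with a lentivirus that expresses a short hairpin RNA against PTPRN, a phosphatase-family membrane protein of secretory vesicles. Both groups were thus lentivirus-infected lines grown in serum-containing medium, 1 hairpin was used, and the series' title concerns cell growth. The question put to the collagen genes was which chains differed between the hairpin and the control, class by class. The design text speaks of biological replicates but does not state separate cultures. The spread behind every p-value is therefore that of these 4 libraries and could be technical in part.

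PTPRN itself stood at 28.6 and 19.3 FPKM (fragments per kilobase of transcript, relative to all mapped fragments) in shNC replicates 1 and 2 and at 5.22 and 3.42 FPKM in shPTPRN3 replicates 1 and 2. Its log2 fold change was -2.22 ± 0.34 (SE, n = 2 libraries a group; limma adjusted p = 0.0592). The depth, estimated from the deposited confidence intervals of single-exon genes, lay between 12 and 28.5 M fragments and was greatest in shPTPRN3 replicate 1. Across 11390 tested genes, limma with Benjamini-Hochberg adjustment called 9 higher (0.0790%) and 39 lower (0.342%) in shPTPRN3 at an adjusted p of 0.05. The cells carried the mesenchymal marker VIM at 1124 to 2177 FPKM, while the astrocyte markers GFAP and AQP4 were listed at 0 in every library. Of the other glial and neural progenitor markers listed, NES measured 2.44 and 3.91 FPKM in shNC and 1.37 and 0.917 FPKM in shPTPRN3. OLIG2, SOX2 and S100B were under 1 FPKM in every library. The defining astrocyte markers were thus absent or low, and the identity of the line is taken from its label.

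Sequences of the chains that the results turn on are shown first. Fibrillar collagen genes hold many coding exons of exactly 54 bases, a length that holds 6 in-frame glycine triplets. The median fibrillar gene had 29 exons of that length (range 21 to 33) and a longest uninterrupted glycine repeat of 338 triplets (216 to 343) in its GENCODE 29 transcript. Basement membrane genes had a median of 2 and a longest repeat of 41 triplets (38 to 66), and the network genes had 0 and 61. The first exon of that length made of 6 in-frame glycine triplets in each of 4 fibrillar genes is given, 5′ to 3′ on the coding strand, with the glycine codon that opens each triplet in capitals. In hg38 these exons lie at chr17:50197949-50198002 on the minus strand (COL1A1, exon 8), chr7:94404693-94404746 on the plus strand (COL1A2, exon 8), chr9:134753850-134753903 on the plus strand (COL5A1, exon 15) and chr2:189097277-189097330 on the minus strand (COL5A2, exon 6).
COL1A1 exon 8: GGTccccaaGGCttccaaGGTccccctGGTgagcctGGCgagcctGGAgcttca
COL1A2 exon 8: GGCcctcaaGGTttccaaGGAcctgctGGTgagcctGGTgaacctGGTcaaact
COL5A1 exon 15: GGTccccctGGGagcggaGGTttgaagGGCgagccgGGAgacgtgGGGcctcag
COL5A2 exon 6: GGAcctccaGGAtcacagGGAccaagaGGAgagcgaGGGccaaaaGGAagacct
In all 4 exons a glycine codon opens every one of the 6 triplets, and the COL5A1 exon has a further glycine codon within a triplet, 7 in all. Some of the codons in between are the same in COL1A1 and COL1A2.

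The basement membrane genes lie in head-to-head pairs that share an intergenic stretch, which is why the start regions of both genes of a pair are shown. The RefSeq tables (GRCh38.p14) held start-site windows for 32 of the 44 genes. COL4A5 and COL4A6 start 379 bases apart on opposite strands of the X chromosome, and their 300-base windows share 121 bases. COL4A1 and COL4A2 start 126 bases apart on chromosome 13, with 226 shared bases. The windows lie at chrX:108439588-108439887 on the plus strand (COL4A5), chrX:108439409-108439708 on the minus strand (COL4A6), chr13:110307108-110307407 on the minus strand (COL4A1) and chr13:110307034-110307333 on the plus strand (COL4A2). That of COL6A2, the window of the most abundant chain that had one, lies at chr21:46097862-46098161 on the plus strand. Capitals mark 3 motifs read on either strand. These are CCAAT, known as the CCAAT box, then the usual TATA box letters TATAAA, and the GC box letters GGGCGG, where a match on the opposite strand shows as its reverse complement. The motifs do not overlap one another in these windows.
COL4A5: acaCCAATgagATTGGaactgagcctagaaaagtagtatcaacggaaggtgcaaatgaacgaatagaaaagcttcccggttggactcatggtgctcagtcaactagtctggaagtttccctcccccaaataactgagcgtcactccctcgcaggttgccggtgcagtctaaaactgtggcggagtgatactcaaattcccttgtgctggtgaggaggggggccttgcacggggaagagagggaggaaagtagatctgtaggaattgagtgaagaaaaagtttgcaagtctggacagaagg
COL4A6: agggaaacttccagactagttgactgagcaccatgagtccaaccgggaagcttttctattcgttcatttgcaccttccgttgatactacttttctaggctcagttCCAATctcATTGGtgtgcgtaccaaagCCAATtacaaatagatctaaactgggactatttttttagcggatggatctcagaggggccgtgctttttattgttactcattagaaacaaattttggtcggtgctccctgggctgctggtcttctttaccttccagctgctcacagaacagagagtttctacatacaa
COL4A1: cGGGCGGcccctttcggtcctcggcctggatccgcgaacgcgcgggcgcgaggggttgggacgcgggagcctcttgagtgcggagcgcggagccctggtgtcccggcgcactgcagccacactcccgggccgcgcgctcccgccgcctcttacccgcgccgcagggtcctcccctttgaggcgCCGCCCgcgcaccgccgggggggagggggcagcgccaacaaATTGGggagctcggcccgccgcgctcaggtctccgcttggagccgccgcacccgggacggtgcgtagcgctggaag
COL4A2: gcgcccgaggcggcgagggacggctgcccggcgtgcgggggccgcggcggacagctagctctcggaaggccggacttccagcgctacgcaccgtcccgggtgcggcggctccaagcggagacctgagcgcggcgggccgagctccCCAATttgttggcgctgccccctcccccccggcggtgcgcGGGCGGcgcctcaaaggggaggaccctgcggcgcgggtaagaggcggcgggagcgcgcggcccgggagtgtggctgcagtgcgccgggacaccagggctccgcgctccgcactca
COL6A2: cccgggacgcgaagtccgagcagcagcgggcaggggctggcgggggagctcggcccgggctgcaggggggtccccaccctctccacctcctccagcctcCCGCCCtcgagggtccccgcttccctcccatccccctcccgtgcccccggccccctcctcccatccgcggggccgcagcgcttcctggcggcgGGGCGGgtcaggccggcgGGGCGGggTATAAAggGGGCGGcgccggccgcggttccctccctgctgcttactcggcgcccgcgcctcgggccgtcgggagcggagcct
COL4A5 held 2 CCAAT matches and COL4A6 held 3, of which 2 are the same letters read from the other side, and neither window held TATAAA or GGGCGG. COL4A6 has another start in RefSeq, 1415 bases from that of COL4A5, whose window (chrX:108438373-108438672, not shown) held 1 GGGCGG and no CCAAT. COL4A1 and COL4A2 each held 1 CCAAT, again the same letters, with GGGCGG at 2 places and 1 place. Their windows were rich in G and C (76.7% and 77.7%), against 49.3% in COL4A5 and 43.7% in COL4A6. COL6A2 held TATAAA at 32 bases before its start and 4 matches of GGGCGG. Of all 35116 windows of this length, 34.6% held CCAAT, 11.5% TATAAA and 45.0% GGGCGG. Of the 44 collagen windows, some of them a second start of the same gene, 14, 8 and 24 did. A match describes letters in the window and says nothing of a bound factor.

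Most collagen genes that these cells used had higher values with the hairpin, but no single chain passed the test across all genes. On the log2 scale with a pseudocount of 1, COL1A2 (2.16) and COL1A1 (1.71) had the largest fold changes. With a pseudocount of 0.1, the low chains COL11A1 (2.67), COL4A6 (2.49) and COL5A1 (2.34) lay above COL1A2 (2.17). Of the 44 genes, 15 had a mean of at least 1 FPKM over the 4 libraries and were tested. limma called 0 of them at an adjusted p of 0.05, against 0.421% of all tested genes called in either direction. At an unadjusted p of 0.05, 8 were higher and 0 lower, where 5.67% of all tested genes were higher and 7.77% lower. In 12 of the 15, both shPTPRN3 libraries lay above both shNC libraries, as in 21.5% of all tested genes, and in 1 both lay below, as in 23.1%. The fold change was positive for 14 of the 15, against 49.5% of all tested genes, and its median was 0.98 on the log2 scale, against -0.01 over all genes. COL5A1, COL4A6 and COL11A1 passed the 1 FPKM filter only through their shPTPRN3 libraries and so had to differ, which makes these counts and the median a description. Bulk RNA cannot tell fewer cells that express a chain from less RNA per cell.

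**Figure D1:**
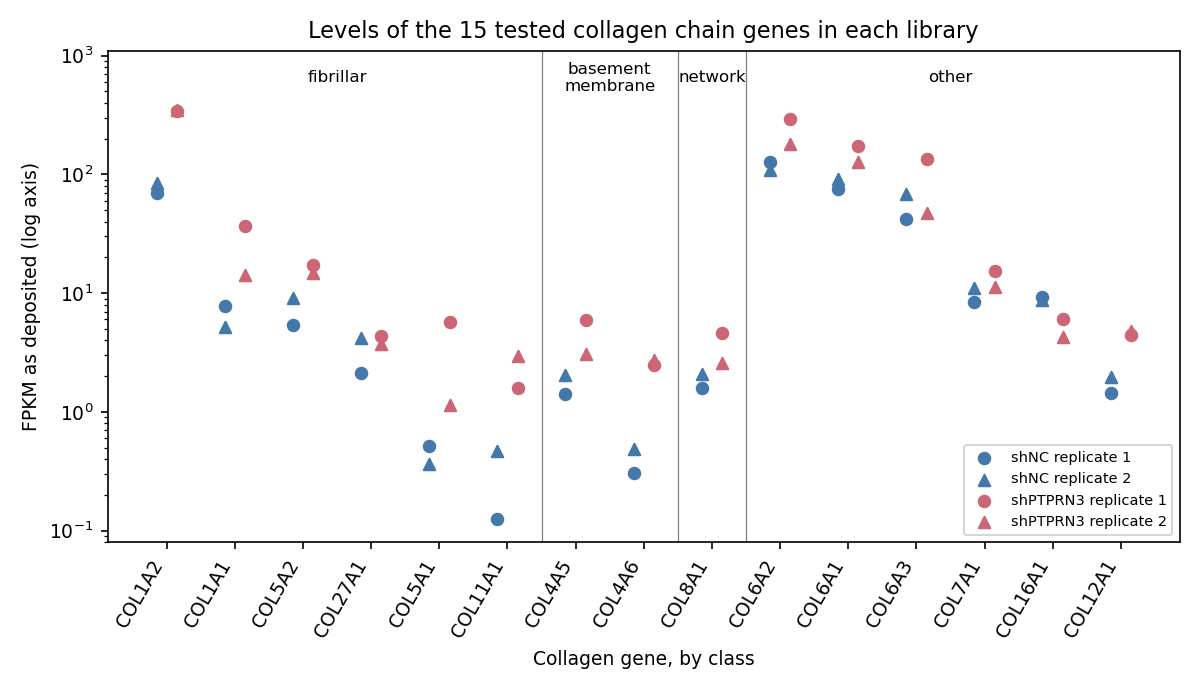
FPKM of the 15 tested collagen chain genes (log axis), grouped by class along the horizontal axis. Each point is 1 library: shNC in blue, shPTPRN3 in red, replicate 1 as circles and replicate 2 as triangles. COL1A2 stands at 340 and 348 FPKM in shPTPRN3 against 70.0 and 84.3 in shNC, and COL16A1 is the tested gene with both shPTPRN3 points below both shNC points.

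Among the fibrillar chains, which assemble into the banded fibrils of connective tissue, COL1A2 had the highest level in every library and COL1A1 was also several times higher with the hairpin. COL1A2 (chr7:94394895-94431227, plus strand, hg38), which encodes the alpha-2 chain of type I collagen, measured 70.0 and 84.3 FPKM in shNC and 340 and 348 FPKM in shPTPRN3. The libraries of a group lay close together and the groups were far apart. The scaled mean was 4.49 times as high in shPTPRN3, and the log2 fold change was 2.16 ± 0.40 (SE, n = 2 a group; 95% interval 1.21 to 3.11; limma adjusted p = 0.0785). COL1A2 passed at an adjusted p of 0.0388 when genes listed at 0 in any library were left out of the limma fit, and at 0.0341 when the trend with transcript length was removed. Leaving out 1 library at a time gave adjusted p-values of 0.179 to 0.33, from limma fits with a lone library on 1 side.

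COL1A1 (chr17:50184096-50201639, minus strand), which encodes the alpha-1 chain, measured 7.81 and 5.19 FPKM in shNC and 36.8 and 14.2 FPKM in shPTPRN3. Both shPTPRN3 libraries were higher, but they differed from each other by more than the shNC libraries did. Its log2 fold change was 1.71 ± 0.45 (SE, n = 2 a group; limma adjusted p = 0.170). Without shPTPRN3 replicate 2 it was 2.31, and limma then called it at an adjusted p of 0.0465. Without any other library the limma adjusted p lay between 0.334 and 0.408.

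Type V collagen forms mixed fibrils with type I and helps to set their width. COL5A2 (chr2:189031898-189179761, minus strand), its alpha-2 chain, measured 5.43 and 9.17 FPKM in shNC and 17.4 and 14.6 FPKM in shPTPRN3. The groups did not overlap, and the log2 fold change was 1.08 ± 0.36 (SE; limma adjusted p = 0.263). The microRNA gene MIR3129 lies within it.

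COL5A1 (chr9:134641803-134844842, plus strand), the alpha-1 chain, measured 0.518 and 0.361 FPKM in shNC and 5.71 and 1.14 FPKM in shPTPRN3. Both hairpin libraries were above the controls, but replicate 1 was several times as high as replicate 2. The log2 fold change was 1.39 ± 0.50 (SE; limma adjusted p = 0.301), and it was 2.19 without shPTPRN3 replicate 2, where limma called it at an adjusted p of 0.0267. Over the 3 single-library exclusions that kept it in the limma fit, the adjusted p reached 0.526. COL5A1-AS1 and LOC101448202 overlap it, and with the strand setting of the authors' quantification not given, their reads cannot be told apart with certainty.

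COL11A1 (chr1:102876467-103108522, minus strand), a chain of the minor fibrillar collagen XI known from cartilage, measured 0.124 and 0.469 FPKM in shNC and 1.57 and 2.96 FPKM in shPTPRN3. All 4 values were low and the groups did not overlap. The log2 fold change was 1.32 ± 0.36 (SE; limma adjusted p = 0.182).

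COL27A1 (chr9:114155537-114312511, plus strand), also a fibrillar chain, measured 2.13 and 4.15 FPKM in shNC and 4.35 and 3.73 FPKM in shPTPRN3. The groups overlapped, because shNC replicate 2 reached the level of the hairpin libraries. Its log2 fold change was 0.33 ± 0.36 (SE; limma adjusted p = 0.746) and turned to -0.059 without shNC replicate 1. Over the 6 tested fibrillar genes the median log2 fold change was 1.36, including COL5A1 and COL11A1, which passed the filter only through the hairpin libraries.

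**Figure D2:**
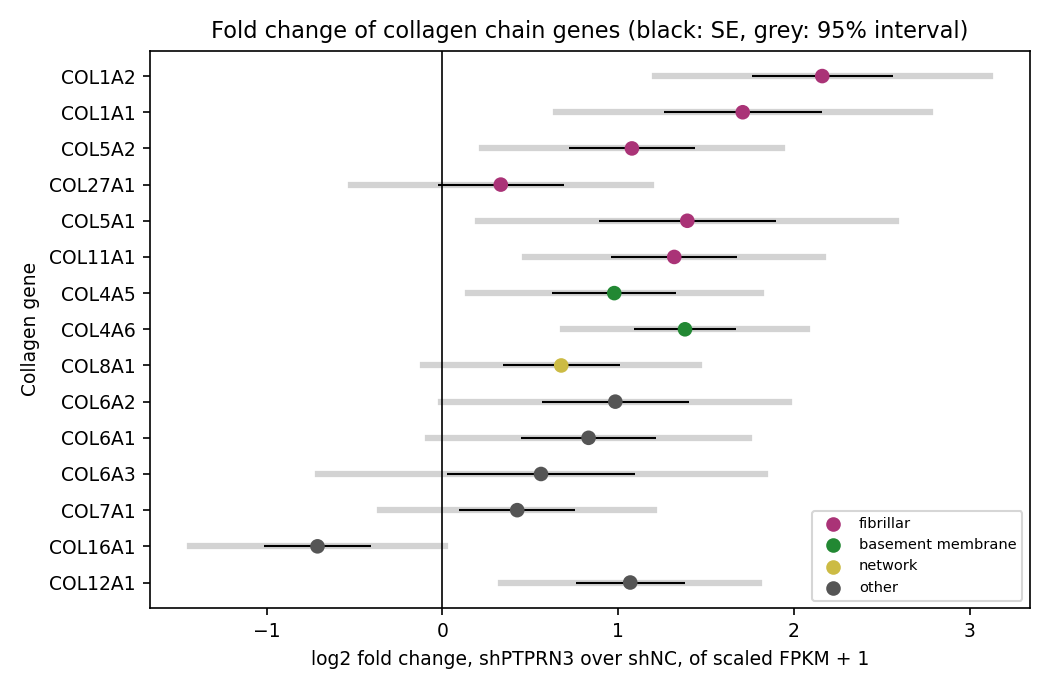
Log2 fold change of scaled FPKM + 1, shPTPRN3 over shNC, for the 15 tested collagen genes (points coloured by class), with its SE in black and its 95% interval in grey. COL1A2 is farthest to the right at 2.16, 14 points lie right of 0 and COL16A1 lies left of it at -0.71.

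Among the basement membrane chains, which form the sheet-like networks under epithelia and around vessels, the X-linked pair was expressed and higher with the hairpin. COL4A5 (chrX:108439838-108697545, plus strand) measured 1.42 and 2.03 FPKM in shNC and 5.94 and 3.07 FPKM in shPTPRN3. Both hairpin libraries were higher, replicate 1 the more so, and the log2 fold change was 0.98 ± 0.35 (SE; limma adjusted p = 0.301). Its neighbour COL4A6 (chrX:108155607-108439458, minus strand) measured 0.304 and 0.488 FPKM in shNC and 2.50 and 2.73 FPKM in shPTPRN3. Here the hairpin libraries were alike and both far above the controls. The scaled mean was 6.64 times as high, and the log2 fold change was 1.38 ± 0.29 (SE; limma adjusted p = 0.103). It passed at an adjusted p of 0.0402 in limma when genes listed at 0 in any library were left out, and leaving out a library gave 0.135 to 0.322. The deposited 95% intervals, which cover error within a library, ran from 0.208 to 0.399 and 0.344 to 0.641 FPKM in shNC and from 2.28 to 2.72 and 2.39 to 3.07 FPKM in shPTPRN3.

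The other basement membrane chains were listed near or under 1 FPKM. COL4A2 (chr13:110307284-110513209, plus strand), usually the partner of COL4A1 in every basement membrane, measured 1.17 and 0.224 FPKM in shNC and 1.41 and 0.882 FPKM in shPTPRN3, a mean of 0.923 FPKM that left it just outside the filter. The groups overlapped. COL4A1, whose start site lies next to that of COL4A2, was listed at 0 and at 0.00958 FPKM in shNC and at 0.0729 and 0.0374 FPKM in shPTPRN3. COL4A3 (0.0244, 0.0233, 0.0973 and 0.197 FPKM) and COL4A4 (0.0704, 0.0497, 0.180 and 0.272 FPKM), another head-to-head pair, were higher in both hairpin libraries at levels far under 1 FPKM. For COL4A3 the deposited 95% intervals ended at 0.0428 and 0.0453 FPKM in shNC and began at 0.0660 and 0.125 FPKM in shPTPRN3.

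COL8A1 (chr3:99638594-99799217, plus strand), a short-chain collagen of hexagonal networks known from vessels and the cornea, was the network chain that could be tested. It measured 1.60 and 2.09 FPKM in shNC and 4.66 and 2.6 FPKM in shPTPRN3. The groups did not overlap, though shPTPRN3 replicate 2 lay close to the controls, and the log2 fold change was 0.68 ± 0.33 (SE; limma adjusted p = 0.432). COL8A2 and COL10A1 stayed under 1 FPKM in every library and their groups overlapped.

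Collagen VI, which forms beaded microfilaments next to the cell surface, was the most abundant collagen of the control cells. COL6A2 (chr21:46098112-46132848, plus strand) measured 126 and 108 FPKM in shNC and 295 and 179 FPKM in shPTPRN3. The scaled mean was 2.02 times as high, and the log2 fold change was 0.98 ± 0.42 (SE; limma adjusted p = 0.375). COL6A1 (chr21:45981770-46005048, plus strand), which lies near it on chromosome 21, measured 76.0 and 91.6 FPKM in shNC and 172 and 127 FPKM in shPTPRN3. Its log2 fold change was 0.83 ± 0.39 (SE; limma adjusted p = 0.414). For both chains the hairpin libraries were above the controls and replicate 1 was the higher of them.

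COL6A3 (chr2:237324012-237414207, minus strand), the longest chain of the collagen VI molecule, measured 42.3 and 68.8 FPKM in shNC and 134 and 47.0 FPKM in shPTPRN3. Only shPTPRN3 replicate 1 was above the controls, and replicate 2 lay between them. The log2 fold change was 0.56 ± 0.54 (SE; limma adjusted p = 0.710), and without shPTPRN3 replicate 1 it was -0.11. COL6A5 and COL6A6 reached 0.00799 and 0.0123 FPKM at most.

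Of the remaining chains, COL7A1 (chr3:48564073-48595160, minus strand), which forms the anchoring fibrils that tie epithelial basement membranes to the tissue below, measured 8.42 and 11.0 FPKM in shNC and 15.3 and 11.3 FPKM in shPTPRN3. Only shPTPRN3 replicate 1 was clearly above the controls, and the log2 fold change was 0.43 ± 0.33 (SE; limma adjusted p = 0.624). MIR711 lies within the gene.

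The 2 tested fibril-associated chains went opposite ways. COL12A1 (chr6:75084326-75206053, minus strand), which binds the surface of type I fibrils, measured 1.43 and 1.97 FPKM in shNC and 4.41 and 4.80 FPKM in shPTPRN3. The scaled mean was 2.73 times as high, with a log2 fold change of 1.07 ± 0.31 (SE; limma adjusted p = 0.204), and SNORD156 lies within the gene. COL16A1 (chr1:31652264-31704017, minus strand), another fibril-associated chain, measured 9.25 and 8.78 FPKM in shNC and 6.04 and 4.24 FPKM in shPTPRN3. It was the tested chain with a negative fold change, and the groups did not overlap. Its log2 fold change was -0.71 ± 0.31 (SE; limma adjusted p = 0.383) and kept its sign in every alternative run, from -0.86 to -0.55.

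The 29 untested chains were listed at low levels. Of these, 18 had a mean under 0.1 FPKM and 28 were under 1 FPKM in every library, COL4A2 being the exception. COL3A1, the partner of type I collagen in soft tissues, measured 0.0434 and 0.149 FPKM in shNC and 0.175 and 0.347 FPKM in shPTPRN3. COL2A1, the main collagen of cartilage, was listed above 0 in 1 library, at 0.0127 FPKM. COL9A1, COL9A3 and COL18A1 were listed at 0 in every library, and SLC19A1 and TCFL5 overlap COL18A1 and COL9A3, so that how fragments were shared there is uncertain. The best expressed of them beside COL4A2 were COL15A1, a multiplexin of basement membrane zones, and COL17A1, a transmembrane collagen of epithelial cells. COL15A1 measured 0.686 and 0.520 FPKM in shNC and 0.603 and 0.319 FPKM in shPTPRN3. COL17A1 measured 0.446 and 0.483 FPKM in shNC and 0.274 and 0.679 FPKM in shPTPRN3. The groups of both overlapped. COL14A1, a fibril-associated chain, was higher in both hairpin libraries, at 0.432 and 0.258 FPKM against 0.152 and 0.241 FPKM in shNC. COL5A3, the remaining collagen V chain, ranged from 0.0385 FPKM in shPTPRN3 replicate 1 to 0.572 FPKM in shPTPRN3 replicate 2, wider than the shNC libraries at 0.159 and 0.445 FPKM. Of the 26 listed above 0 in some library, 8 lay higher in both hairpin libraries, against 18.9% of all untested genes listed above 0, and 2 lay lower, against 11.9%. The other 16 overlapped. At these levels the counts are a description. COL11A2 was summed over 7 table rows, of which 6 are on alternate sequences of the assembly.

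Summed over all 44 chains, collagen transcripts amounted to 357 and 402 FPKM in shNC and to 1050 and 770 FPKM in shPTPRN3. As a share of the FPKM of all genes, this was 0.0749% and 0.129% in shNC and 0.257% and 0.245% in shPTPRN3. The shNC shares lay farther apart than the shNC sums, because the summed FPKM of all genes also differed between libraries. The hairpin share was 2.47 times the control share (exact permutation test, two-sided, p = 0.33, the smallest that 2 against 2 libraries allow). Type I and type VI collagen made up most of it, since the 7 COL1 and COL6 genes together held 89.2% to 93.1% of collagen FPKM in each library.

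Within that sum, the fibrillar part was larger with the hairpin. Fibrillar chains held 24.2% and 26% of collagen FPKM in shNC and 38.6% and 50.1% in shPTPRN3. COL6 chains held 68.6% and 66.9% in shNC and 57.3% and 45.8% in shPTPRN3. COL1A2 alone went from 19.6% and 21.0% to 32.3% and 45.1%. Without the COL1 and COL6 genes the other 37 chains summed to 34.4 and 43.5 FPKM in shNC and to 72.3 and 55.5 FPKM in shPTPRN3. The fibrillar share of all FPKM was 4.30 times as high in shPTPRN3 and the COL6 share 1.89 times (exact permutation test, p = 0.33 for each).

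**Figure D3:**
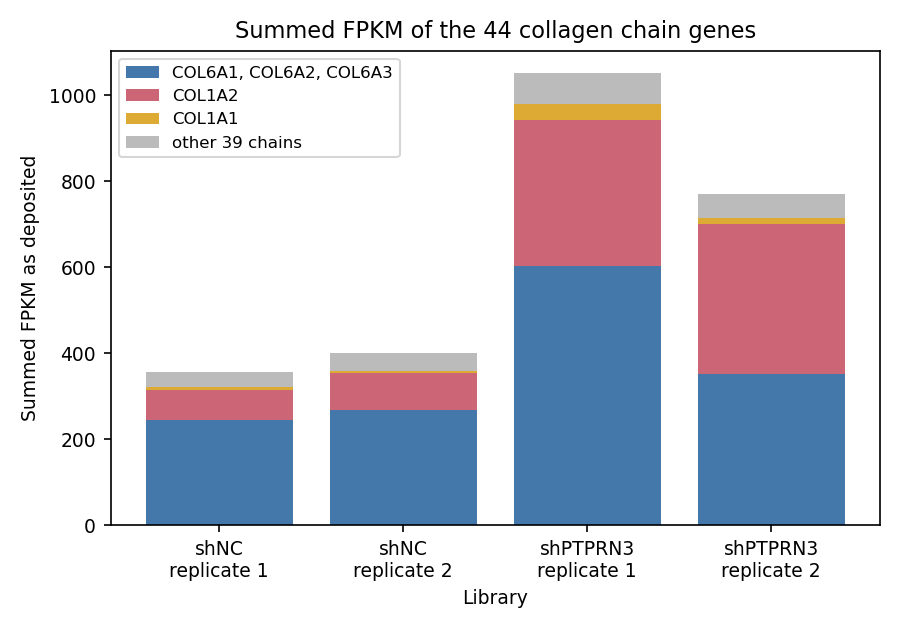
Summed FPKM of the 44 collagen chain genes in each library, with COL6A1, COL6A2 and COL6A3 together in blue, COL1A2 in red, COL1A1 in yellow and the other 39 chains in grey. The shPTPRN3 bars reach 1050 and 770 FPKM and the shNC bars 357 and 402 FPKM, and the COL1A2 segment is of like height in both shPTPRN3 libraries.

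Chains of 1 trimer are made in fixed proportions as protein, so their transcript ratios were compared on the FPKM scale, which is per length. The type I molecule has COL1A1 chains in excess of COL1A2 chains, yet COL1A1 was listed far below COL1A2 in every library. The ratio of COL1A1 to COL1A2 was 0.112 and 0.0616 in shNC and 0.108 and 0.0407 in shPTPRN3. It differed more between the replicates than between the groups (log2 difference -0.32, exact permutation test, two-sided, p = 0.667). The ratio of COL6A1 to COL6A2 was 0.602 and 0.847 in shNC and 0.584 and 0.708 in shPTPRN3 (log2 difference -0.15, exact permutation p = 0.667). That of COL6A3 to COL6A1 was 0.557 and 0.751 in shNC and 0.776 and 0.371 in shPTPRN3 (log2 difference -0.27, exact permutation p = 1). All 3 adjusted p-values were 1, and each difference changed sign on leaving out a library.

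Collagen transcripts are long, and in these libraries differences moved with length, so the values are given beside those of genes of like length. The 15 tested collagen genes had a median transcript length of 6750 bases (3461 to 11723), against 2966 bases for other tested genes. Across 11010 genes with a length, which are not independent replicates, the fold change had a Spearman rho of 0.15 with length. It was 0.31 between the libraries numbered 1 and -0.02 between those numbered 2. Within a group the correlation was larger: 0.67 for shNC replicate 2 over replicate 1, and 0.40 for shPTPRN3 replicate 2 over replicate 1.

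Set beside genes of like length, most collagen chains had the larger fold change. Leaving aside the 3 chains that passed the filter only through shPTPRN3, 11 of 12 lay above the median of other genes within 0.25 log2 units of their length, by 0.22 to 2.08, and COL16A1 lay below it. Other genes of 6000 to under 8000 bases had a median log2 fold change of 0.08, and the 6 collagen genes in that range had 1.2, or 1.03 over 4 without COL4A6 and COL11A1. At 8000 bases or more the medians were 0.17 for other genes and 0.81 for 4 collagen genes, or 0.56 over 3 without COL5A1. At 4000 to under 6000 bases they were 0.06 and 0.75, the latter over 4 genes. With the trend removed from each library, the collagen median was 0.90 and COL1A2 stood at 2.09. Between the libraries numbered 1 the collagen median was 1.2 with 14 genes positive, and between those numbered 2, where the length correlation was near 0, it was 0.67 with 12 positive. The medians after trend removal and by library number, and the positive counts, are over all 15 tested chains. These include COL5A1, COL4A6 and COL11A1, which passed the filter only through shPTPRN3. What part of the collagen differences length carried was not tested further.

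**Figure D4:**
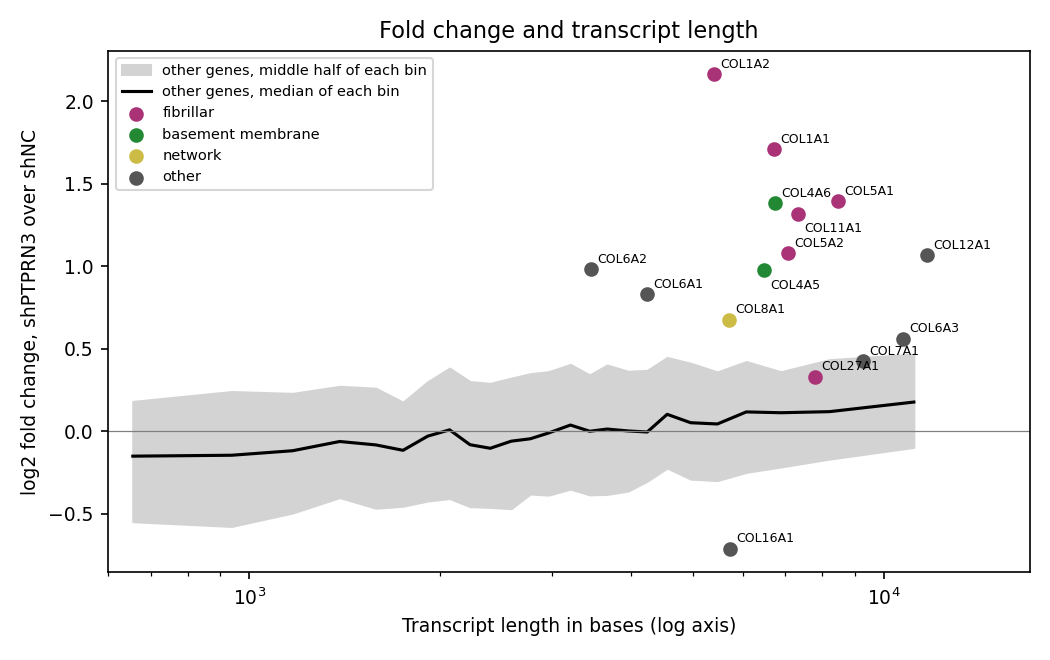
Log2 fold change (shPTPRN3 over shNC) of the 15 tested collagen genes against transcript length in bases (log axis), coloured by class. The black line is the median and the grey band the range from the 25% to the 75% quantile of other tested genes in 25 bins of length. The line climbs only slightly with length, and 12 collagen points lie higher than the band reaches. Of these, COL5A1, COL4A6 and COL11A1 passed the 1 FPKM filter only through their shPTPRN3 libraries.

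Leaving out each library in turn showed which chains rested on 1 library. COL1A2 stayed between 1.98 and 2.33 on the log2 scale, COL4A6 between 1.27 and 1.49 and COL12A1 between 0.90 and 1.24. COL1A1 ranged from 1.12 to 2.31 and was lowest without shPTPRN3 replicate 1. COL6A3 ranged from -0.11 to 1.24 and COL27A1 from -0.059 to 0.72, which made them the tested chains whose sign changed. The collagen median ranged from 0.69 without shPTPRN3 replicate 1 to 1.19 without shPTPRN3 replicate 2. Each of these medians covers 14 chains. COL5A1 fell under the 1 FPKM filter without shPTPRN3 replicate 1, and COL11A1 without shPTPRN3 replicate 2. shPTPRN3 replicate 1, the deepest library, held the highest FPKM of all 4 libraries for COL6A1, COL6A2, COL6A3, COL1A1, COL5A1, COL5A2, COL4A5, COL7A1, COL8A1 and COL27A1. Whether depth bore on that was not tested.

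**Figure D5:**
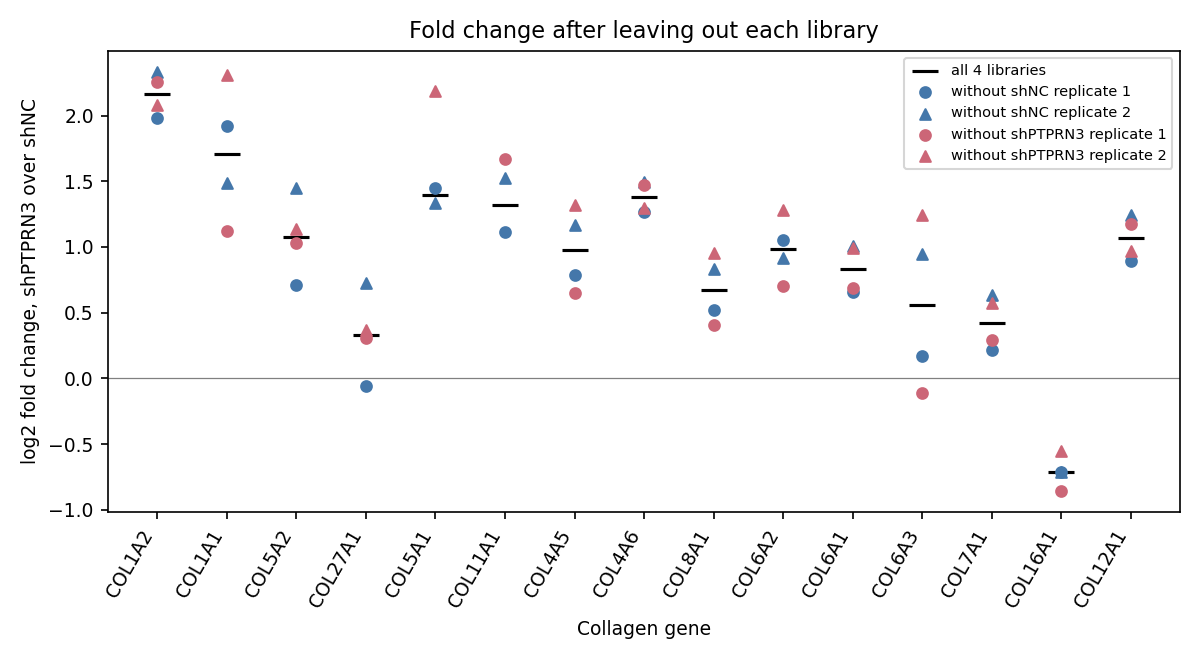
Log2 fold change of each tested collagen gene with all 4 libraries (black bar) and with 1 library left out (points; blue without an shNC library, red without an shPTPRN3 library). COL1A2 and COL4A6 keep their points close together, whereas those of COL6A3 and COL27A1 cross 0. COL5A1 has no point without shPTPRN3 replicate 1, nor COL11A1 without shPTPRN3 replicate 2, where each fell under the filter.

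The enzymes and chaperones that modify and fold collagen chains in the endoplasmic reticulum had a positive fold change in 16 of 18 tested genes of 20 listed, and limma called 0 of them over all genes. In 11 both hairpin libraries lay above both controls and in 2 both lay below, against 21.5% and 23.1% of all tested genes. At an unadjusted p of 0.05, 6 were higher and 1 lower, where 5.67% and 7.77% of all tested genes were, and the median log2 fold change was 0.63. SERPINH1, the collagen-specific chaperone, measured 58.4 and 38.4 FPKM in shNC and 156 and 137 FPKM in shPTPRN3 (log2 fold change 1.62 ± 0.38, SE; limma adjusted p = 0.125). P4HA2, a catalytic subunit of prolyl 4-hydroxylase, measured 16.9 and 11.8 FPKM in shNC and 47.3 and 35.2 FPKM in shPTPRN3 (1.48 ± 0.34, SE; limma adjusted p = 0.118). The groups of both genes were well apart. P4HA1, the alternative catalytic subunit, went the other way, at 8.95 and 7.36 FPKM in shNC and 5.77 and 3.43 FPKM in shPTPRN3 (-0.73 ± 0.33, SE; limma adjusted p = 0.401).

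P4HB, the shared subunit of that enzyme, measured 297 and 196 FPKM in shNC and 436 and 297 FPKM in shPTPRN3 (0.59 ± 0.46, SE; limma adjusted p = 0.628), where the lower hairpin library was level with the higher control. PLOD2, which hydroxylates lysines used in cross-links, measured 13.7 and 27.1 FPKM in shNC and 25.1 and 28.4 FPKM in shPTPRN3, and its groups overlapped. CRTAP, which belongs to the prolyl 3-hydroxylation complex of type I collagen and was picked out after its values were seen, went the other way. It measured 56.2 and 65.4 FPKM in shNC and 15.2 and 7.80 FPKM in shPTPRN3 (-2.35 ± 0.38, SE; limma adjusted p = 0.0637). P3H2 and COLGALT1 of the same list, also picked out afterwards, were higher in both hairpin libraries. Their log2 fold changes were 2.07 ± 0.31 and 1.88 ± 0.37 (SE; limma adjusted p = 0.0557 and 0.0867). The scaled shNC mean of P3H2 was 0.911 FPKM, so it passed the 1 FPKM filter only through shPTPRN3.

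Outside the cell, procollagen processing and cross-linking enzymes had a median log2 fold change of 0.43 over 7 tested of 13 listed. At an unadjusted p of 0.05 in limma, 2 were higher and 0 lower, where 5.67% and 7.77% of all tested genes were. LOX, which starts cross-links by oxidising lysines, measured 7.80 and 6.63 FPKM in shNC and 15.8 and 9.55 FPKM in shPTPRN3 (0.71 ± 0.33, SE; limma adjusted p = 0.416). BMP1, the protease that removes the C-terminal propeptide, measured 12.1 and 12.5 FPKM in shNC and 16.3 and 11.4 FPKM in shPTPRN3, and its groups overlapped. ADAMTS2, ADAMTS3 and ADAMTS14, proteases of the N-terminal propeptide, reached at most 0.0467, 0.298 and 0.251 FPKM.

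Among fibril partners, 6 of 10 listed genes were tested, and the median log2 fold change was 1.40. At an unadjusted p of 0.05 in limma, 4 were higher and 0 lower, against 5.67% and 7.77% of all tested genes. SPARC, a secreted protein that binds collagen, measured 39.2 and 33.5 FPKM in shNC and 241 and 160 FPKM in shPTPRN3 (2.42 ± 0.37, SE; limma adjusted p = 0.0594). Both hairpin libraries were far above the controls.

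Collagen receptors and uptake genes had a median of 0.39 over 7 tested of 10 listed. Of the 7, 1 was higher and 1 lower at an unadjusted p of 0.05 in limma, against 5.67% and 7.77% of all tested genes. The higher gene was DDR1 (log2 fold change 0.86) and the lower gene ITGA10 (-1.10), both picked out after their values were seen. The scaled shPTPRN3 mean of ITGA10 was 0.349 FPKM, so it passed the 1 FPKM filter only through shNC and had to differ. The median includes it. ITGB1, the beta chain of the collagen-binding integrins, measured 61.7 and 103 FPKM in shNC and 163 and 102 FPKM in shPTPRN3 (0.70 ± 0.45, SE; limma adjusted p = 0.534). DDR2, a receptor tyrosine kinase for fibrillar collagen, measured 6.30 and 13.7 FPKM in shNC and 11.7 and 14.1 FPKM in shPTPRN3. MRC2, which takes up collagen for breakdown, measured 11.7 and 13.2 FPKM in shNC and 26 and 10.3 FPKM in shPTPRN3. The groups of DDR2 and MRC2 overlapped. Those of ITGB1 overlapped as deposited but not as scaled FPKM, at 59.4 and 105.9 in shNC and 155.4 and 107.7 in shPTPRN3.

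Listed regulators of collagen genes had a median log2 fold change of 0.23 over 15 tested of 15, 10 of them positive. At an unadjusted p of 0.05, 1 was higher and 1 lower, close to the shares over all tested genes. TGFB1, a main inducer of collagen genes, measured 85.8 and 78.4 FPKM in shNC and 106 and 88.9 FPKM in shPTPRN3 (0.26 ± 0.36, SE; limma adjusted p = 0.810). CREB3L1, a transcription factor known to act on type I collagen genes, measured 32.3 and 28.1 FPKM in shNC and 52.9 and 42.8 FPKM in shPTPRN3 (0.65 ± 0.33, SE; limma adjusted p = 0.435). SCX, a tendon transcription factor that acts on type I collagen genes, was lower in both hairpin libraries, at 8.83 and 3.85 FPKM in shNC and 2.38 and 1.72 FPKM in shPTPRN3 (-1.18 ± 0.39, SE; limma adjusted p = 0.259). SMAD3, which carries the TGF-beta signal to the nucleus, was lower too, at 11.0 and 7.57 FPKM against 6.68 and 4.73 FPKM (-0.60 ± 0.32, SE; limma adjusted p = 0.462). TGFB3 was the regulator higher at an unadjusted p of 0.05 in limma. It measured 0.926 and 1.13 FPKM in shNC and 2.74 and 3.09 FPKM in shPTPRN3 (0.96 ± 0.30, SE; limma adjusted p = 0.226). P4HA1, SCX, SMAD3 and TGFB3 were picked out after their values were seen.

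Markers of other collagen-producing cells were read beside these values. The 7 fibroblast and pericyte markers summed to 38.3 and 31.8 FPKM in shNC and to 45.9 and 29.7 FPKM in shPTPRN3, so that the groups overlapped, and 5 of them were tested. LUM (log2 fold change 1.11), RGS5 (0.82) and PDGFRB (0.65) were higher in both hairpin libraries, while ACTA2 (-0.25) and FAP (-0.37) overlapped. PDGFRA and DCN were under 1 FPKM in every library. At that low level DCN was also higher in both hairpin libraries, at 0.391 and 0.841 FPKM against 0.155 and 0.0462 FPKM in shNC. All 5 endothelial and all 4 epithelial markers were under 1 FPKM in every library, summing to 0.534 to 1.38 FPKM and to 0.518 to 1.33 FPKM. Of the 5 immune markers, CD68, a lysosomal protein, measured 234 and 247 FPKM in shNC and 457 and 307 FPKM in shPTPRN3 (0.65 ± 0.45, SE; limma adjusted p = 0.566). CSF1R (-0.49) was lower in both hairpin libraries, and PTPRC, CD14 and AIF1 were under 1 FPKM in every library. Of the 3 neuronal markers, SNAP25 measured 7.42 and 5.80 FPKM in shNC and 29.97 and 9.58 FPKM in shPTPRN3 (1.27 ± 0.48, SE; limma adjusted p = 0.324). SYT1 (0.32) overlapped and RBFOX3 was under 1 FPKM in every library. The part of other cell types in the collagen differences was not tested.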

How the data were processed

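Messenger RNA from 4 U87 libraries was sequenced after strand-specific library preparation, per the labels' protocols. The submitters' processing notes name FastQC 0.72, STAR 2.6.0b-1, Cufflinks 2.2.1.2 and hg38. The gene annotation and the strand setting are not stated in the labels or headers. The authors deposited FPKM with a 95% interval for each gene row, per the file headers, and fragment counts were not used here. FPKM divide by an assumed transcript length, so they depend on it and on how fragments were shared among overlapping genes. Some collagen values lay outside their own deposited interval (5 rows at most in a library).

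Of 33646 rows, 651 lacked an OK status in some library and were dropped, and the rest were summed per symbol. Median-ratio factors (0.943 to 1.05), taken over the 9988 genes with 1 FPKM or above in all libraries, scaled the FPKM. The limma test (version 3.58.1, R 4.3.3) took genes whose mean reached 1 FPKM. It used log2 of scaled FPKM plus a pseudocount of 1, eBayes with a trend, two-sided p-values and Benjamini-Hochberg adjustment over all 11390 genes at 0.05. The pseudocount understates changes of low genes. The procedure was also run on simulated data whose noise was independent between libraries. Same-numbered libraries deviated together in the real data, and the simulated data did not cover that. Levels printed are FPKM as deposited, while ratios of means and the overlap of groups use scaled FPKM. Shares and chain ratios were compared by exact permutation over libraries.

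The members and lists were chosen with earlier results of these data known. Named genes were every collagen chain with a mean of 1 FPKM or above and a list of partner genes, with exceptions stated. Lengths, exons and coding sequence came from GENCODE 29 on hg38 (96.7% of tested genes had a length), and start-site windows from RefSeq on GRCh38.p14. Alternatives covered scaling (deposited FPKM, TPM, quantile), pseudocount, filters, rows, eBayes settings, a replicate block, a length trend and leaving out each library.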

Additional observations from a re-analysis of the deposited data

How the results depend on the processing

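The collagen median of 0.98 moved to 0.069 when all 41 chains above 0 in a library were kept, since most were near 0, and ranged from 0.69 to 1.19 on leaving out a library. The count of chains called higher was 0 in the reported limma fit. It was 2 when genes listed at 0 in any library were left out (COL1A2 and COL4A6), and 1 with the length trend removed (COL1A2). With those genes left out, limma called 42 of 11125 genes higher and 175 lower. With the trend removed it called 36 of 11010 genes higher and 109 lower. The reported fit called 9 higher and 39 lower of 11390. COL4A6 passed the 1 FPKM filter only through shPTPRN3. The count called lower stayed at 0 in all of these. With 1 library left out, the lone library is assumed to vary like the other group.

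Same-numbered libraries deviated together across genes (correlation 0.519), but with 2 pairs the numbers give no pairing in the design. With the replicate number as a block, limma called 10 chains higher and 1 lower (COL16A1), where it called 955 of all genes higher and 1208 lower, and the medians did not move. The blocked limma adjusted p was 6.52e-06 for COL1A2 and 5.64e-05 for COL1A1, and COL6A3, COL7A1, COL8A1 and COL27A1 did not pass. The blocked fit had 1 residual degree of freedom per gene, against 22.1 that eBayes borrowed from other genes. Its p-values thus rest mainly on the spread of other genes. The 10 chains include COL5A1, COL4A6 and COL11A1, which passed the filter only through shPTPRN3.

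Signs turned for COL27A1 (-0.059 to 0.72 on leaving out a library, negative without shNC replicate 1), COL6A3 (-0.11 to 1.24, negative without shPTPRN3 replicate 1) and the chain ratios, whose leave-one-out fits were chosen after seeing the data. The log2 difference of COL1A1 over COL1A2 ranged from -1.02 to 0.39 and was 0.11 without shNC replicate 1. That of COL6A1 over COL6A2 ranged from -0.40 to 0.10, and that of COL6A3 over COL6A1 from -0.80 to 0.26. No scaling or pseudocount turned a sign among the 15 tested chains. The share of all FPKM ranged from 1.95 to 3.35 times on leaving out a library. With 2 libraries a group the limma test had 2 residual degrees of freedom, and depth is an estimate because fragment counts were not used.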
